A study of Homo sapiens with 6 samples.

Results

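A set of 10 genes of the unfolded protein response (UPR) and of endoplasmic reticulum (ER)-associated degradation (ERAD) was followed in 6 RNA sequencing libraries, 3 from samples that received an adenovirus with a control short hairpin RNA (shRNA) and 3 from samples that received an adenovirus with an shRNA against GOLPH3. The genes were picked by identifier (ID): their 10 rows were read out of a table of 34866 gene IDs, of which 11400 carried enough counts to be tested. All 10 IDs were in the table, 9 were tested, and 1 (Creld2) had no counts in any library. All samples are labelled MKN45, a cell line from a human gastric adenocarcinoma that the study describes as MUC6 negative, and no other treatment, time point or dose is given in the labels. The labels do not say how many hairpins were used or how long the virus was left on the cells. The GOLPH3 samples are titled sh1, sh2 and sh3, and whether these numbers stand for hairpins or replicates is not given. They are called replicates 1 to 3 here. Whether the 3 samples of a group are separate cultures is not given either. A p-value therefore weighs the difference only against the scatter of these samples, and that scatter may be technical. GOLPH3 sits on Golgi membranes, where it helps to keep glycosylation enzymes in place, and the comparison asks how the transcripts differ when it is targeted.

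The row names are Ensembl mouse gene IDs and the submitters' processing notes name the mouse build mm10, whereas the labels describe human cells. Symbols are therefore those of the mouse genes the rows stand for, and a level is the number of reads assigned to that mouse gene model, which need not follow the abundance of the transcript in the cells. Which species the reads came from was not tested. Fold changes compare the same ID between libraries. No source used here pairs other IDs of the table with symbols, so GOLPH3 itself (the check of the knockdown), the ER chaperones, other ERAD and PERK pathway genes and markers of other cell types were not analysed here. Libraries held 6287037 to 7355140 estimated counts in the control group and 4977645 to 5676169 in the GOLPH3 shRNA group, so every GOLPH3 shRNA library was smaller than every control library. The part of this difference in depth in the results was not tested. Fewer cells of a kind and less RNA per cell cannot be told apart in such bulk samples.

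The UPR is the answer of a cell to unfolded proteins in the ER. It has 3 membrane sensors: IRE1-alpha (Ern1), which cuts the Xbp1 messenger RNA so that it can be spliced into the code for an active transcription factor; PERK (Eif2ak3), a kinase that slows translation by phosphorylating the initiation factor eIF2-alpha; and ATF6 (Atf6), a membrane-bound transcription factor that moves to the Golgi and is cut there. Their targets include DnaJ co-chaperones of the ER chaperone BiP (Dnajb9, Dnajc3) and the machinery that draws misfolded glycoproteins out of the ER for the proteasome: Edem1 helps to mark them by mannose trimming, Sel1l is the adaptor of the ubiquitin ligase HRD1, and Herpud1 is a ligase scaffold at the same membrane complex. Secretory epithelia such as the gastric mucosa make heavy use of this system. Counts per gene, as deposited, do not distinguish spliced from unspliced Xbp1, and they say nothing of sensor phosphorylation or cleavage.

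The 9 tested genes did not move as a block. With GOLPH3 shRNA, Xbp1, Edem1 and Eif2ak3 fell, 1.38-fold, 1.52-fold and 1.60-fold. Atf6, Herpud1 and Dnajc3 rose by less, 1.21-fold, 1.22-fold and 1.25-fold, and Ern1, Sel1l and Dnajb9 were not called. The calls of Xbp1, Edem1, Herpud1 and Dnajc3 held in all 14 alternative analyses, that of Eif2ak3 in 11 and that of Atf6 in 3. A call is an adjusted p below 0.05 in edgeR's quasi-likelihood test, with Benjamini-Hochberg adjustment over all tested IDs. Called genes thus made up 6 of 9, where 33.9% of all tested IDs were called, 17.8% lower and 16.1% higher. The 3 values of one group lay wholly on one side of the other group's for 6 genes, against 46.3% of all tested IDs. A call with at least a 1.5-fold decrease was made for 2 genes (Eif2ak3 and Edem1), against 9.13% of all tested IDs. The largest increase was 1.25-fold (Dnajc3), and increases of at least 1.5-fold were not counted over all tested IDs. With 9 genes, these counts are a description, and no test of the group of genes was made. The genes were also chosen with earlier results of these data known, so a difference from the shares of all tested IDs is not read as a result. Their median log2 fold change was 0.0089 beside 0.0019 over all tested IDs.

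Levels are given in CPM, estimated counts scaled to a common library total with trimmed mean of M-values (TMM) factors. They are compared between libraries only, since no gene length of the files' build was used here. Fold changes are given on the log2 scale with a standard error (SE) and, in some places, a 95% interval from the same fit.

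**Figure D1:**
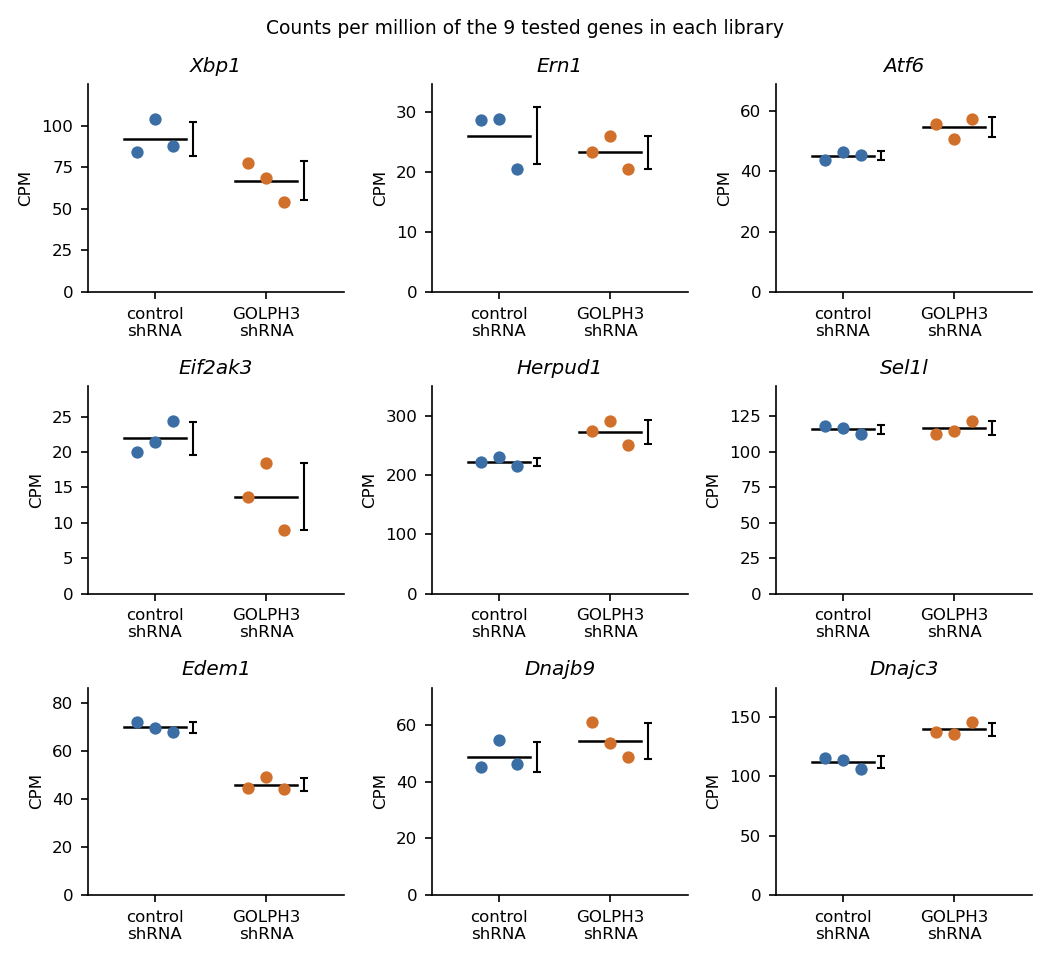
Counts scaled to a common total (CPM, vertical axes, each from 0) of the 9 tested genes, with 1 point per library, a line at the mean of 3 and a bar of 1 SD beside it. Edem1 sits at 67.8 to 72.1 CPM in the control libraries and at 44.1 to 49.1 with GOLPH3 shRNA, and Dnajc3 at 106 to 116 and 136 to 146, while the points of Ern1, Sel1l and Dnajb9 overlap between groups.

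XBP1 and ATF6 act through short elements close to the start of their targets, among them the ER stress response element (ERSE, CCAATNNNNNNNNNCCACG), ERSE-II (ATTGGNCCACG), the UPR element (UPRE, TGACGTGG) and the cyclic AMP response element-like core TGACGT, which every UPRE contains. These letters were searched on both strands in the RefSeq promoters of human build GRCh38.p14, each 300 bases long (250 before and 50 from the start on), since the labels give the cells as human. All 10 symbols matched by name, with 11 entries because XBP1 has 2 starts. ERSE was found in 27 of 35116 promoters (0.0769%), among them those of XBP1 and CRELD2. ERSE-II was found in 19 (0.0541%), among them that of HERPUD1. UPRE was found in 256 (0.729%), none of them (0) a promoter of these genes, and the core in 2803 (7.98%), among them that of ATF6. A match is a run of letters, not a shown binding site, and the absence of a match says only that these letters are not in this window. The promoters of DNAJC3, whose mouse gene rose, and of EIF2AK3, whose mouse gene fell, had no match. A link between a match and the direction of change was not tested. The promoters of a gene that fell and has an ERSE (XBP1, chr22:28800520-28800819, minus strand), of a gene that rose and has an ERSE-II (HERPUD1, chr16:56931892-56932191, plus strand) and of the gene with the lowest adjusted p (EDEM1, chr3:5187457-5187756, plus strand, with none of these letters) are shown 5′ to 3′, with the match in capitals:
XBP1: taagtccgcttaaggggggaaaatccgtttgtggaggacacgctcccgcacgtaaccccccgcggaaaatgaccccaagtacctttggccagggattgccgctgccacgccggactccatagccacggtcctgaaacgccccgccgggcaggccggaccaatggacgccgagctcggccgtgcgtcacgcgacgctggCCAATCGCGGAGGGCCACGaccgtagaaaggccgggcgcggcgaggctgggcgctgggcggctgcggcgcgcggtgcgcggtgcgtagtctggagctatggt
HERPUD1: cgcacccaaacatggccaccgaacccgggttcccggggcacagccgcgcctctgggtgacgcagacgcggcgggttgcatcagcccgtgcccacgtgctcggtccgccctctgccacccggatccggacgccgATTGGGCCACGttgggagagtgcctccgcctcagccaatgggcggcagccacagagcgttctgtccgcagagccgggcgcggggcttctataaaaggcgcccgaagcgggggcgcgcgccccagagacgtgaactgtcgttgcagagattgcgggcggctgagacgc
EDEM1: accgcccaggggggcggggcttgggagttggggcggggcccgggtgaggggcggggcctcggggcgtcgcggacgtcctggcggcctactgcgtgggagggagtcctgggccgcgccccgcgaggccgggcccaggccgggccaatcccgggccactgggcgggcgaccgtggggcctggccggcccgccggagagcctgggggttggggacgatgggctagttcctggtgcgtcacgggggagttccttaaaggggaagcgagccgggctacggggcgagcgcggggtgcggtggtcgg
The XBP1 match runs from position -52 to -34 relative to the start (chr22:28800603-28800621), and the HERPUD1 match from -117 to -107 (chr16:56932025-56932035).

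Of the 3 sensors, Eif2ak3 fell, Atf6 rose and Ern1 was not called. Eif2ak3 (ENSMUSG00000031668), the PERK gene, had 19.9, 21.4 and 24.4 CPM in control replicates 1, 2 and 3 and 13.6, 18.4 and 9.04 CPM in the GOLPH3 shRNA replicates. Every GOLPH3 shRNA library lay below every control library, and the GOLPH3 shRNA values were widely spread, with replicate 3 lowest and replicate 2 close to the controls. The group means were 21.9 ± 2.29 and 13.7 ± 4.70 CPM (SD, n = 3), which is a change of -0.68 on the log2 scale (SE 0.21, edgeR adjusted p = 0.021) or a 1.60-fold lower level. The 95% interval of the fold ran from 0.458 to 0.854 of the control. Of all tested IDs, 9.43% had a lower fold change. This gene rests on the fewest counts of the 9, between 50 and 157 per library, and its coefficient of variation with GOLPH3 shRNA was 34.4%, where counting alone would give about 11.7%. The call was lost without GOLPH3 shRNA replicate 3 (log2 fold change -0.45, adjusted p = 0.0855), without GOLPH3 shRNA replicate 1 (-0.68, adjusted p = 0.0669) and without control replicate 3 (-0.60, adjusted p = 0.0728).

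Atf6 (ENSMUSG00000026663) went the other way. It had 43.6, 46.5 and 45.4 CPM in the control libraries and 55.8, 50.9 and 57.3 CPM with GOLPH3 shRNA. All 3 GOLPH3 shRNA values were above all 3 control values, by a narrow margin for replicate 2. The means were 45.2 ± 1.47 and 54.6 ± 3.36 CPM (SD, n = 3), a log2 fold change of 0.27 (SE 0.10), or 1.21-fold. The edgeR adjusted p was 0.046, just inside the threshold, and the call did not hold in 11 of 14 alternatives (adjusted p between 0.0362 and 0.133 over the 14), although the gene was higher in each of them.

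Ern1 (ENSMUSG00000020715), the IRE1-alpha gene, had 28.6, 28.8 and 20.5 CPM in the control libraries and 23.3, 26.0 and 20.4 CPM with GOLPH3 shRNA. The groups overlapped, and control replicate 3 lay at the level of the lowest GOLPH3 shRNA library. The log2 fold change was -0.16 (SE 0.16, edgeR adjusted p = 0.467), and its 95% interval, from -0.51 to 0.18, spans a decrease to 0.704 of the control as well as an increase to 1.13-fold. These libraries do not settle whether this gene fell. The value depended on single libraries: leaving out control replicate 1, 2 or 3 gave -0.093, -0.086 or -0.31, and leaving out GOLPH3 shRNA replicate 2 or 3 gave -0.26 or -0.082, uncalled each time. At 113 to 211 counts per library, it was the second thinnest of the 9 in its lowest library.

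Xbp1 (ENSMUSG00000020484), the transcription factor downstream of IRE1-alpha, fell. The human XBP1 promoter shown above holds an ERSE, and the other XBP1 entry does not. Xbp1 was measured in all libraries. The levels of Xbp1 were 84.5, 104 and 87.6 CPM in the control libraries and 77.9, 68.8 and 54.4 CPM with GOLPH3 shRNA. The groups did not overlap, but GOLPH3 shRNA replicate 1 came close to control replicate 1, and replicate 3 was the lowest, as it was for Eif2ak3. The means were 92.1 ± 10.5 and 67.0 ± 11.8 CPM (SD, n = 3), or -0.46 on the log2 scale (SE 0.12, edgeR adjusted p = 0.0074), a 1.38-fold lower level. Against the control mean, the 3 GOLPH3 shRNA libraries stood at -0.24, -0.42 and -0.75 on the log2 scale. The call held in all 14 alternatives, with values from -0.59 to -0.34 and adjusted p from 2.16e-05 to 0.0487. The count for this gene sums all its transcripts, so a change in its splicing would not show here.

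**Figure D2:**
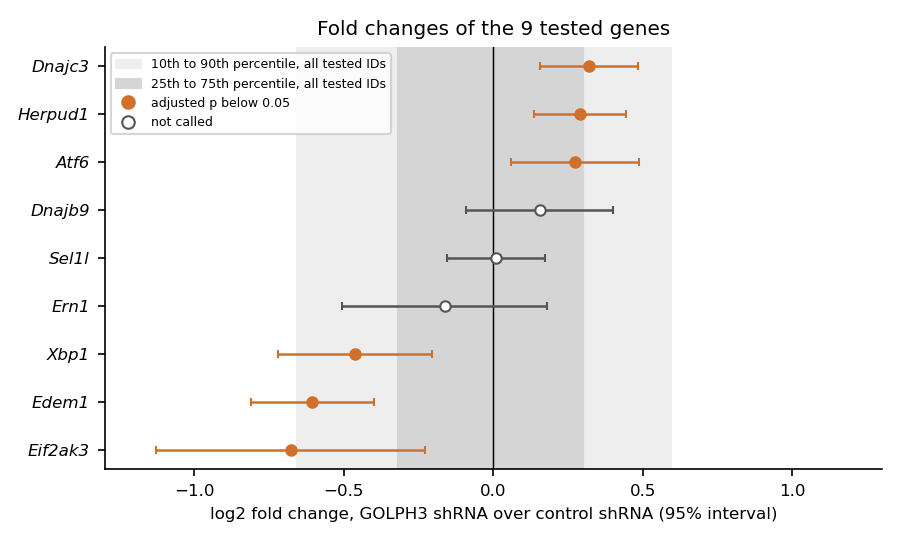
Log2 fold change of GOLPH3 shRNA over control shRNA (horizontal axis) for the 9 tested genes, with 95% intervals; filled points passed the test. The shaded bands run from the 25th to the 75th percentile (-0.32 to 0.30) and from the 10th to the 90th (-0.66 to 0.59) of the fold changes of all 11400 tested IDs, and of these 9 genes Eif2ak3, at -0.68, lies outside the wider band.

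Among the ERAD genes, Edem1 fell, Herpud1 rose and Sel1l was not called. Edem1 (ENSMUSG00000030104), the mannosidase-like protein that helps to commit glycoproteins to degradation, had 72.1, 69.8 and 67.8 CPM in the control libraries and 44.6, 49.1 and 44.1 CPM with GOLPH3 shRNA. The groups were far apart relative to their spread. The means were 69.9 ± 2.16 and 45.9 ± 2.73 CPM (SD, n = 3), 1.52-fold lower with GOLPH3 shRNA (log2 scale -0.61, SE 0.097, edgeR adjusted p = 0.00017). It had the lowest adjusted p of the 9 genes and was called in all 14 alternatives, with values from -0.66 to -0.58. Of all tested IDs, 11.6% had a lower fold change.

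Herpud1 (ENSMUSG00000031770), the ligase scaffold whose human promoter holds the ERSE-II, had 222, 230 and 216 CPM in the control libraries and 274, 292 and 251 CPM with GOLPH3 shRNA. Each GOLPH3 shRNA library was above each control library. The means were 223 ± 6.94 and 272 ± 20.5 CPM (SD, n = 3), 1.22-fold higher with GOLPH3 shRNA (log2 scale 0.29, SE 0.073, edgeR adjusted p = 0.0057). The call held in all 14 alternatives (0.23 to 0.34). With 1351 to 1687 counts per library, it had the most counts of the 9 genes.

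Sel1l (ENSMUSG00000020964), the adaptor that stabilises HRD1, had 118, 116 and 112 CPM in the control libraries and 112, 115 and 122 CPM with GOLPH3 shRNA. The values of the 2 groups were mixed. The log2 fold change was 0.0089 (SE 0.077, edgeR adjusted p = 0.944). Its 95% interval, 0.898 to 1.13 of the control, does not reach the 1.22-fold increase of Herpud1 or the 1.52-fold decrease of Edem1. It does overlap the 95% interval of Herpud1, 1.10 to 1.36. The sign of the Sel1l fold change differed in 4 of the 14 alternatives, and over the 14 the value lay between -0.032 and 0.029.

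Of the 2 DnaJ co-chaperones, Dnajc3 rose and Dnajb9 was not called. Dnajc3 (ENSMUSG00000022136), or p58IPK, which assists BiP and is also known as an inhibitor of PERK, had 116, 114 and 106 CPM in the control libraries and 137, 136 and 146 CPM with GOLPH3 shRNA. The groups were clearly separate. The means were 112 ± 5.08 and 140 ± 5.47 CPM (SD, n = 3), 1.25-fold higher with GOLPH3 shRNA (log2 scale 0.32, SE 0.077, edgeR adjusted p = 0.0042). The call held in all 14 alternatives (0.28 to 0.34).

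Dnajb9 (ENSMUSG00000014905), or ERdj4, a co-chaperone known as a target of spliced XBP1, had 45.1, 54.8 and 46.2 CPM in the control libraries and 61.0, 53.5 and 48.6 CPM with GOLPH3 shRNA. Control replicate 2 lay above 2 of the 3 GOLPH3 shRNA libraries, so the groups overlapped. The log2 fold change was 0.16 (SE 0.12, edgeR adjusted p = 0.324), with a 95% interval from -0.090 to 0.40. It was 0.062 without GOLPH3 shRNA replicate 1, 0.098 without control replicate 1 and 0.25 without control replicate 2, uncalled each time. Its estimates had a fractional part in 3 of the 6 libraries, and those of the other 8 tested genes were whole in every library (to within 0.001 of a count). How the fractional estimates arose is not stated, and its counts are uncertain to that extent.

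Creld2 (ENSMUSG00000023272), an ER-resident disulfide isomerase whose human promoter holds an ERSE, had an estimated count of 0 in all 6 libraries. It is among the 16727 IDs (48.0% of the table) with no counts in any library. Taking 3 counts as the most that a count of 0 allows, reads assigned to this ID lay below 0.409 to 0.608 CPM, depending on the library, with counting error alone in view. No fold change can be given, and whether the transcript is absent from the cells or its reads were not assigned to the mouse gene model was not tested.

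Since the genes of one pathway went different ways, ratios of 2 genes were taken within each library, where any scaling of the library cancels. The size of such a ratio depends on the lengths of both genes and is not read; its change between groups is. The log2 ratio of Herpud1 to Edem1 was 1.62, 1.72 and 1.67 in the control libraries and 2.62, 2.57 and 2.51 with GOLPH3 shRNA. It was higher in all 3 GOLPH3 shRNA libraries, by 0.90 on average, with an SD of 0.049 in the controls and 0.054 with GOLPH3 shRNA. The log2 ratio of Sel1l to Edem1 averaged 0.73 ± 0.012 with control shRNA and 1.34 ± 0.12 with GOLPH3 shRNA (SD, n = 3). These groups did not overlap either. The log2 ratio of Atf6 to Eif2ak3 was 1.05 ± 0.13 and 2.06 ± 0.60, with the highest value, 2.66, in GOLPH3 shRNA replicate 3. Herpud1 and Dnajc3, by contrast, had a mean log2 ratio of 0.99 ± 0.047 and 0.96 ± 0.16, with overlapping groups. The exact two-sided permutation p was 0.1 for each of the first 3 ratios and 0.8 for the last. With 3 libraries against 3 it cannot go below 0.1, and over all 36 pairs of the 9 genes the lowest Benjamini-Hochberg adjusted value was 0.171. These 4 ratios were chosen after the values had been seen, so no call is made on them. Herpud1 and Atf6 were higher, and Edem1 and Eif2ak3 lower, each without overlap. The Herpud1/Edem1 and Atf6/Eif2ak3 ratios therefore had to separate, and their permutation p of 0.1 restates the values of the single genes. Sel1l stayed between -0.045 and 0.076 of the control mean on the log2 scale in every library. The separation of the Sel1l/Edem1 ratio thus restates the fall of Edem1. Of the 36 pairs, 21 had separate groups. Each pair of a gene that rose with a gene that fell, both without overlap, had to be among them. The share over pairs of all tested IDs was not computed, so this count is not read as a result about these genes.

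**Figure D3:**
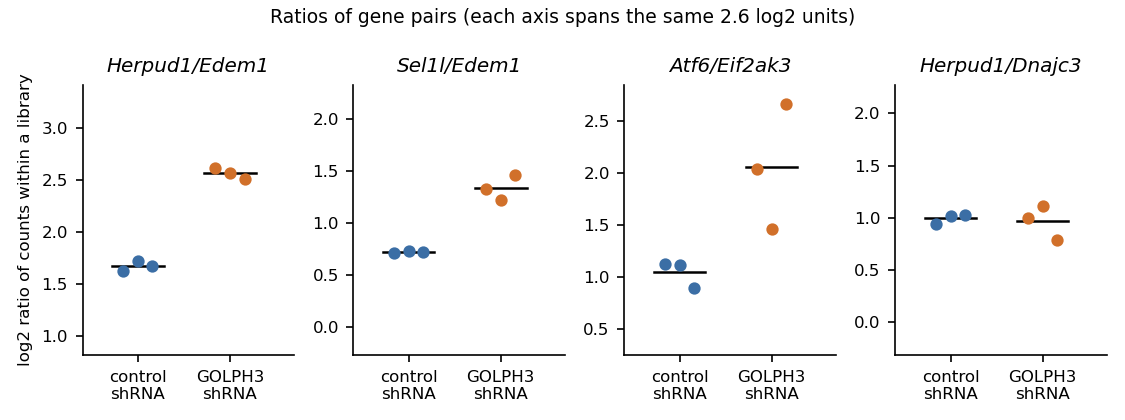
Log2 ratio of the counts of 2 genes within each library (vertical axes, equal spans), with 1 point per library and a line at the mean of 3. The Herpud1/Edem1 points lie at 1.62 to 1.72 in the controls and 2.51 to 2.62 with GOLPH3 shRNA, and those of Herpud1/Dnajc3 overlap.

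The libraries were not equally far from the controls for each gene. GOLPH3 shRNA replicate 3 was the lowest of the 6 libraries for Xbp1, Ern1, Eif2ak3 and Edem1, and the highest for Atf6, Dnajc3 and Sel1l. For Herpud1 and Dnajb9 it was the GOLPH3 shRNA library nearest to the controls. GOLPH3 shRNA replicate 2 deviated least from the control mean for Ern1, Atf6, Eif2ak3, Dnajc3, Sel1l and Edem1, at -0.51 for Edem1 and -0.24 for Eif2ak3 on the log2 scale, where replicate 3 stood at -0.66 and -1.27.

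**Figure D4:**
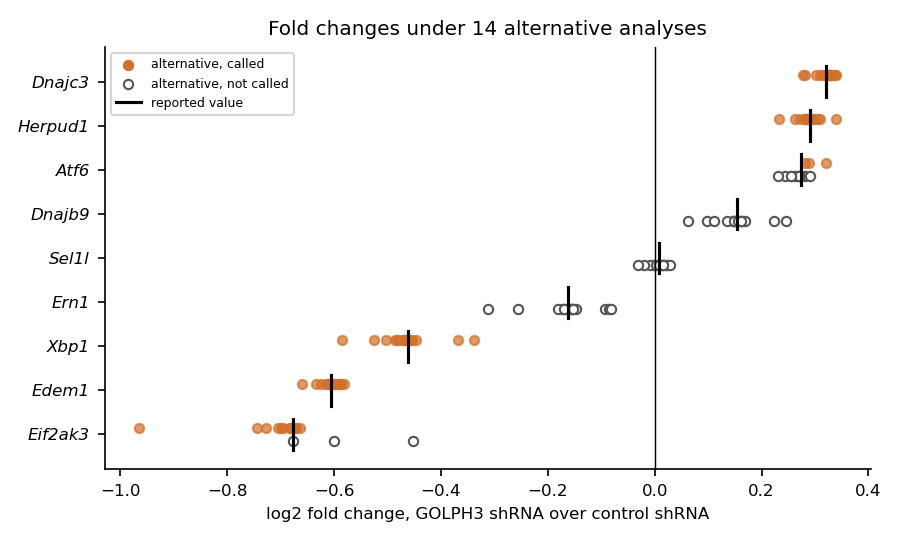
Log2 fold change of each tested gene (horizontal axis) in the reported fit (vertical line) and in 14 alternatives; filled points, set slightly above, passed the test and open points did not. Xbp1, Edem1, Herpud1 and Dnajc3 passed in every alternative, Eif2ak3 in 11 and Atf6 in 3 of the 14.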

How the data were processed

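Messenger RNA was sequenced with a stranded library kit, per the labels' protocols. The values are the authors' estimated counts by gene ID, not scaled; the genome build is mm10, per the submitters' processing notes. These notes name no aligner, quantifier, annotation release or strand setting (not given in the sources used here). Columns were assigned by sample title. Estimated counts were rounded, IDs kept by filterByExpr (11400 of 34866), and groups compared with edgeR 4.0.16 in R 4.3.3 (TMM factors, quasi-likelihood F test, Benjamini-Hochberg over all tested IDs, threshold 0.05), a step tested on simulated data. SEs are the log2 fold change divided by the root of the F statistic. No 2 libraries were identical (0 pairs); across genes, log2 CPM correlated at 0.973 to 0.982 within groups and 0.951 to 0.962 between them. The alternatives used DESeq2 1.42.0, limma-voom (limma 3.58.1), other scalings and filters, a replicate block, and each library left out. All 10 members are reported whatever their values; members and lists were chosen with earlier results of these data known. Pathway lists, GOLPH3 and cell type markers were planned by symbol and were not run.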

Additional observations from a re-analysis of the deposited data

How the results depend on the processing

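Xbp1, Edem1, Herpud1 and Dnajc3 kept their direction and their call in all 14 alternatives, and Ern1 and Dnajb9 kept their direction and stayed uncalled, but their values moved when single libraries were left out (-0.31 to -0.082 for Ern1 and 0.062 to 0.25 for Dnajb9). Atf6 lost its call with DESeq2 (log2 fold change 0.28, adjusted p = 0.0776), limma-voom (0.27, adjusted p = 0.0528), library totals alone (0.26, adjusted p = 0.0574), no filter (0.25, adjusted p = 0.11), a minimum of 1 CPM in 3 libraries (0.27, adjusted p = 0.0541) and the replicate block (0.27, adjusted p = 0.0573). It also lost its call when any library but GOLPH3 shRNA replicate 2 was left out (0.23 to 0.29). Without GOLPH3 shRNA replicate 2, the call of Atf6 held (0.32, edgeR adjusted p = 0.038). Leaving out a library gave Eif2ak3 values from -0.96 to -0.45; the call was lost in the 3 fits named in the report. Sel1l, which is also the median of the 9 genes, turned to -0.0021 with library totals, -0.0096 with no filter, and ran from -0.032 to 0.029 when a library was left out. The cause of these changes was not tested. With the replicate number as a block, 1842 IDs were higher and 2045 lower, and 2 of the 9 genes were higher and 3 lower; the block changed no other call of these genes. After subtracting each group's mean, same-numbered samples correlated at 0.029 (number 1), 0.087 (number 2) and 0.041 (number 3). Differently numbered samples correlated at -0.082 to 0.037. Deviations from a mean of 3 are tied to each other, so these values do not settle whether the numbers pair the samples. Calls over the whole table numbered 1425 to 1952 upwards and 1644 to 2222 downwards in the 14 alternatives. No scaling moved the median of all IDs by more than 0.1. Eif2ak3 and Ern1 had the fewest counts of the 9 in their lowest libraries (50 and 113). Spread beyond counting error was not particular to these genes. With GOLPH3 shRNA, the coefficient of variation of Eif2ak3 was 34.4% against 11.7% from counting alone, and that of Xbp1 17.7% against 5.30%. For Ern1 it was 18.3% against 7.56% in the controls and 11.9% against 8.97% with GOLPH3 shRNA. Edem1 stayed below counting error in both groups (3.09% against 4.62% and 5.95% against 6.38%).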
